A study of Mus musculus with 6 samples.

Results

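The genes described here are 49 splicing regulators of the mouse: SR proteins and their TRA2 relatives, heterogeneous nuclear ribonucleoproteins (hnRNPs), polypyrimidine tract binding (PTB) proteins, regulators known for cell-type-specific splicing, SR-related and nuclear body proteins, and the kinases that phosphorylate SR proteins. They were chosen by gene symbol, as members of these families, and all 49 were present among the 49315 genes of the count table and passed the low-count filter that left 13704 genes for testing. The samples were MK cells, immortalized keratinocytes (the epithelial cells of the epidermis) from mouse skin, in 2 groups of 3 libraries. Control is the line MK-546 (MK-/-), labelled as lacking the integrin subunit α3, a partner of β1 in a laminin receptor. 3A is the line MK-546-ha3A (MK-/-:ha3), in which human α3 was put back into MK-/- cells. Both lines are described as lacking mouse α3, received no treatment and were grown in low calcium medium on collagen-coated dishes, so 3A differs from Control by the human subunit and by whatever separates the reconstituted line from the other. Each group was 1 cell line, and the sources used here do not say whether the 3 replicates were separate cultures or whether the reconstituted line is 1 clone. The p-values below therefore reflect the variation among these 6 samples alone, some or all of which may be technical.

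SR proteins carry RNA recognition motifs and a domain rich in arginine and serine. They bind exonic sequences and promote the recognition of nearby splice sites. Many hnRNPs act against them or restrict splice site use from introns, and several members of both families also take part in mRNA export, translation or the choice of polyadenylation site. SRPK and CLK kinases phosphorylate the arginine and serine rich domain and so control where SR proteins are located in the cell and when they act. In epithelia, ESRP1 and ESRP2 are known for maintaining epithelial exons, whereas QK, RBFOX2 and MBNL proteins are known for splicing in mesenchymal, muscle or nervous tissue. Many of these genes limit their own expression through exons that carry premature stop codons, which send the mRNA to nonsense-mediated decay (NMD).

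The study asked how transcript levels depend on the integrin α3β1, with an emphasis on mRNA 3' end processing. Of the 49 splicing regulators, 6 rose in 3A (Srsf1, Srsf3, Tra2a, Hnrnph1, Hnrnpm and Qk) and 1 fell (Srsf4), by edgeR's quasi-likelihood test at a Benjamini-Hochberg adjusted p under 0.05 over all tested genes. The risers were 1.61-fold to 1.84-fold higher in 3A, and Srsf4 was at 0.637 of its Control level. All 49 fitted changes were smaller than 2-fold. The 7 called members were 14.3% of the 49, beside 14.9% of all tested genes (7.52% higher and 7.39% lower), so the share called among splicing regulators was near that of the transcriptome. DESeq2 called 10 members higher and 2 lower, beside 26.0% of all genes, and limma-voom called the same 7 as edgeR, beside 15.2%. At an unadjusted edgeR p under 0.05, 12 members were higher and 5 lower, beside 15.8% and 18.1% of all genes. The median log2 fold change of the members was 0.13, compared with -0.02 over all tested genes, and 28 of the 49 had a positive value. The 3 libraries of 3A lay apart from the 3 of Control for 20 members, 14 higher and 6 lower, which is 40.8%, beside 36.1% of all tested genes (18.6% higher and 17.6% lower).

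Itga3, the gene altered in these lines, was counted 1007, 1220 and 1062 times in the Control libraries and 2807, 2633 and 2064 times in those of 3A (31.9, 41.7 and 45.1 CPM, and 80.4, 70.2 and 57.5 CPM). Reads of the gene were thus present in the libraries labelled Control, and which part of it the α3-null line lacks is not given in the sources used here. In 3A, reads from the human transgene may also have been counted on the mouse gene. Values of single libraries are given here and below in the order of replicates 1, 2 and 3. Total counts ranged from 25634204 to 36245240 per library. Control 1 stood apart from the other Control libraries. Its log2 CPM (read counts scaled to a fixed library total) correlated with Control 2 and 3 at r = 0.957 and 0.953 across genes, which are not independent replicates, whereas Control 2 and 3 correlated at 0.988. Mitochondrially encoded mRNAs took 1.16% of the counts in Control 1, 4.16% and 4.69% in Control 2 and 3, and 1.23% to 1.58% in 3A, so that Control 1 was on the 3A side in this measure. Within 3A, library 1 was the least like the others, at r = 0.985 and 0.982 with 3A 2 and 3, compared with 0.994 between those. As deviations from the group mean, 3A 1 correlated with Control 2 and 3 at 0.486 and 0.537. Control 1 correlated in the same way with 3A 2 and 3 at 0.537 and 0.439. All 11 keratinocyte markers were detected in the tested set, with summed levels of 11912 to 12678 CPM in Control and 8844 to 10710 CPM in 3A. Markers of fibroblasts, melanocytes, immune cells and endothelium summed to at most 3.40, 3.74, 20.2 and 0.946 CPM in any library, with Lum, Dct, Tyr and Adgre1 at 0 in all 6.

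**Figure D1:**
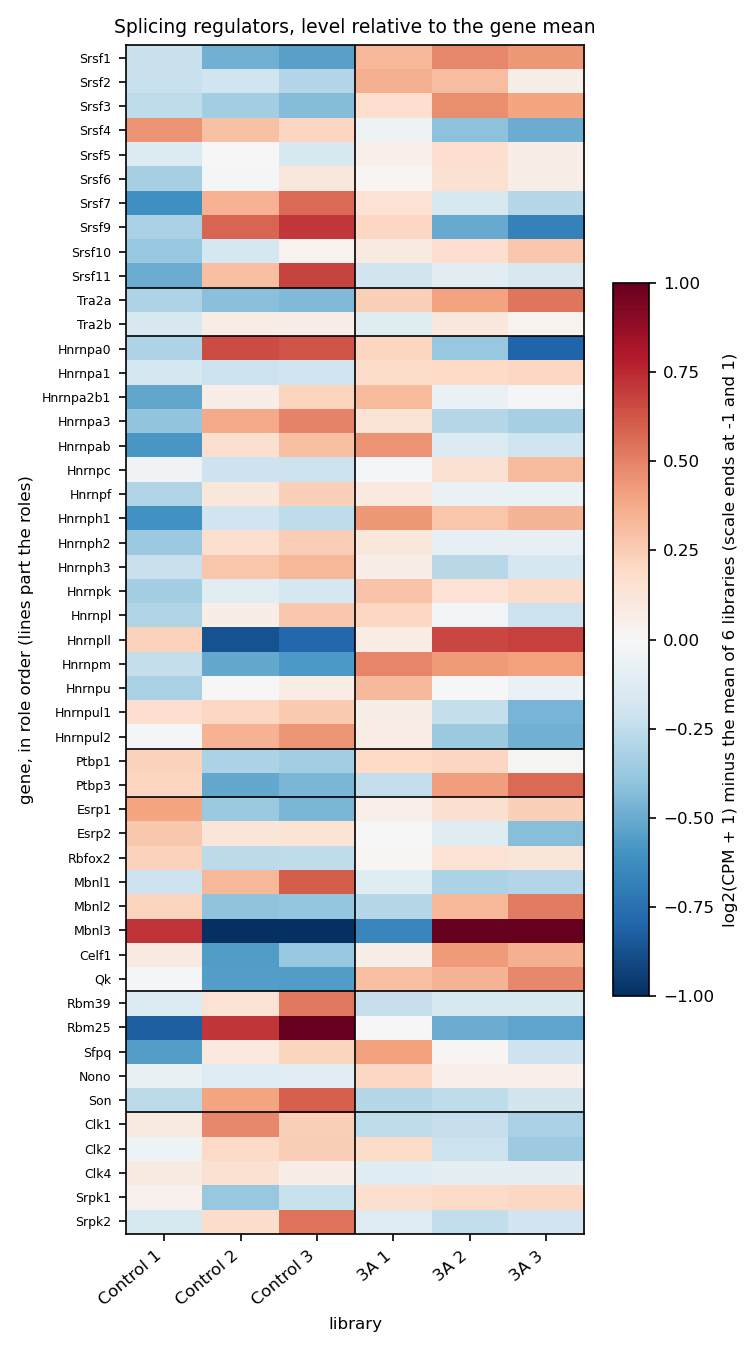
Level of each of the 49 splicing regulators (rows, in role order) in the 6 libraries (columns), as log2(CPM + 1) minus the gene's mean over the 6 libraries, with red above and blue below that mean and the colour scale ending at -1 and 1. Srsf1, Srsf3, Tra2a, Hnrnph1, Hnrnpm and Qk are red in all 3 libraries of 3A, and for Srsf7, Srsf9, Rbm25 and Mbnl3 the first Control column differs from the other two.

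Levels of different genes were compared as CPM per kilobase of merged annotated exons. This length includes exons of retained-intron transcripts, so the level of genes with many of them is understated. On this scale Hnrnpab, which encodes an hnRNP of the A/B type, was the most abundant member at 568 ± 169 (SD, n = 3) in Control and 592 ± 157 in 3A. Hnrnpa3 followed at 259 ± 78.3 and 203 ± 38.2, and Hnrnpa1, a repressor of many exons, at 167 ± 2.23 and 219 ± 1.94. Within Control, Hnrnpa1 and Hnrnpf (192 ± 35.4) did not differ beyond their spread. Among SR proteins Srsf9, Srsf7 and Srsf2 had the highest means per kilobase (101, 70.2 and 50.2 in Control), and Srsf4 the lowest (10.7 in Control and 6.83 in 3A). The kinase genes were low, from 3.77 (Clk4) to 5.58 (Clk2) in Control. Mbnl3 had the lowest Control level of all, 1.82 ± 1.52, and was at 3.42 ± 1.83 in 3A.

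The sequence just before the transcription start is shown to let a reader compare the start regions of called members that moved in opposite directions. Each line gives the 100 bases before the most upstream RefSeq start (GRCm38.p6), on the gene's own strand, for the 4 of the 7 called members whose window shares at most 30 bases with a GENCODE exon of the gene. Srsf3, Hnrnpm and Qk share more (32, 100 and 100 bases), so their windows are not shown. Capitals mark matches, on either strand, to the CCAAT box, the GC box GGGCGG, the ETS factor motif CCGGAAG, the E-box CACGTG, the TATA box letters TATAAA and the cAMP response element core TGACGT. In Tra2a this core overlaps its own reverse complement in a palindrome, and Hnrnph1 has 0 matches.
Srsf1, chr11:88047273-88047372, plus strand: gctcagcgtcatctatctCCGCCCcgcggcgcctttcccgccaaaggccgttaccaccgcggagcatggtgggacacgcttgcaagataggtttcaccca
Tra2a, chr6:49264053-49264152, minus strand: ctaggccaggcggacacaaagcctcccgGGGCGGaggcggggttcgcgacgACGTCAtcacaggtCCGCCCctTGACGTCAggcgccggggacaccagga
Hnrnph1, chr11:50376890-50376989, plus strand: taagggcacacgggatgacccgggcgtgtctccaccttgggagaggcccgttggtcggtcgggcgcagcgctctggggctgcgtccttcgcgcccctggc
Srsf4, chr4:131873537-131873636, plus strand: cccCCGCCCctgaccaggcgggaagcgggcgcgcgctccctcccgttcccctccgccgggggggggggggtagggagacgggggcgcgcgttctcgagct

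RefSeq start regions were matched for 42 of the 49 members. TGACGT was found in 8 of the 42 (19.0%), compared with 4.24% of 27025 genes with a start region of the same length. The 8 were 3 of the 6 members that rose (Srsf3, Tra2a and Hnrnpm) and Srsf6, Srsf11, Tra2b, Hnrnpa2b1 and Clk4, which were not called. The windows of Srsf3 and Hnrnpm share 32 and 100 bases with a GENCODE exon of the gene. Of the 3 risers, only Tra2a thus met the limit of 30 bases set for the printed windows. Windows of members not called were not checked for exons. CCAAT was found in 17 (40.5%, compared with 19.6% of all) and GGGCGG in 23 (54.8%, compared with 25.2%). TATAAA and CACGTG were each found in 3 (7.14%, compared with 5.93% and 3.16%) and CCGGAAG in 2 (4.76%, compared with 4.70%). The median GC content of the window was 65.0% for members and 55.0% for all. The 27025 genes were not limited to those tested here, whereas all members were tested, so the members and this background differ in expression. Shares among tested genes alone were not computed. These matches describe letters in the window and not bound sites.

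Among the 10 SR protein genes, 2 rose and 1 fell by edgeR, beside 14.9% of all tested genes called in either direction. At an unadjusted edgeR p under 0.05, 3 were higher and 1 lower, beside 15.8% and 18.1% of all genes. DESeq2 called 3 higher and 1 lower, beside 26.0% of all genes, and limma-voom 2 and 1, beside 15.2%. Whether the share called among these 10 genes differs from that of all genes was not tested. Srsf1, the founding SR protein and a splicing activator, measured 169, 141 and 135 CPM in the Control libraries, compared with 248, 276 and 266 CPM in those of 3A. All 3A libraries lay above all Control libraries, with Control 1 the highest of its group. Mean levels were 148 ± 18.1 CPM for Control and 263 ± 14.0 CPM for 3A (SD over 3 libraries), a log2 fold change of 0.83 with an SE of 0.15 (edgeR adjusted p = 0.0129). Srsf1 (ENSMUSG00000018379) lies on the plus strand of chromosome 11 at 88047373 to 88053755 (GRCm38, the assembly of mm10).

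Srsf3, the smallest SR protein, which also acts in mRNA export and 3' end formation, was at 299, 280 and 264 CPM in the libraries labelled Control and at 401, 492 and 468 CPM in those labelled 3A. The groups did not overlap, and the nearest values were Control 1 and 3A 1. This is a log2 fold change of 0.69 with an SE of 0.15 (edgeR adjusted p = 0.0247). Srsf3 (ENSMUSG00000071172) lies on chromosome 17 at 29032628 to 29043373.

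Srsf4, an SR protein with a long arginine and serine rich domain, went the other way, from 41.8, 37.3 and 35.4 CPM in the Control libraries to 29.2, 22.6 and 21.1 CPM in those of 3A. Every 3A library was below every Control library. At a log2 fold change of -0.65 with an SE of 0.17 the gene was just inside the threshold (edgeR adjusted p = 0.0483), and it missed the threshold with library size scaling (adjusted p = 0.0998), with no low-count filter (adjusted p = 0.0865) and with the robust fit (adjusted p = 0.0512). Srsf4 (ENSMUSG00000028911) lies on chromosome 4 at 131873617 to 131901706 and shares 1532 exon bases with Gm12992 on the opposite strand. Gm12992 held 1.09% as many counts, and whether the overlap affects the Srsf4 value was not tested.

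Srsf2, an SR protein that also acts in transcription elongation, measured 150, 152 and 143 CPM in the Control libraries, compared with 224, 217 and 182 CPM in those of 3A. The groups did not overlap, but the gene missed the threshold (log2 fold change 0.49, SE 0.14, edgeR adjusted p = 0.0634; DESeq2 adjusted p = 0.00913). Its exons share 748 bases with genes on the opposite strand, Mettl23 and Mfsd11, and the strand setting of the counting is not given in the sources used here. The remaining SR protein genes were not called. Srsf5, Srsf6 and Srsf10 had log2 fold changes of 0.19, 0.15 and 0.34, and Srsf7, Srsf9 and Srsf11 of -0.27, -0.67 and -0.40. For the last 3 the Control libraries were far apart: Srsf9 was at 102, 191 and 209 CPM in the libraries labelled Control and at 147, 89.5 and 79.1 CPM in those labelled 3A. Control 1 thus lay inside the range of the 3A libraries for Srsf9, and below all of them for Srsf7 (143 CPM, against 180 to 243) and Srsf11 (59.1 CPM, against 73.3 to 77.4).

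**Figure D2:**
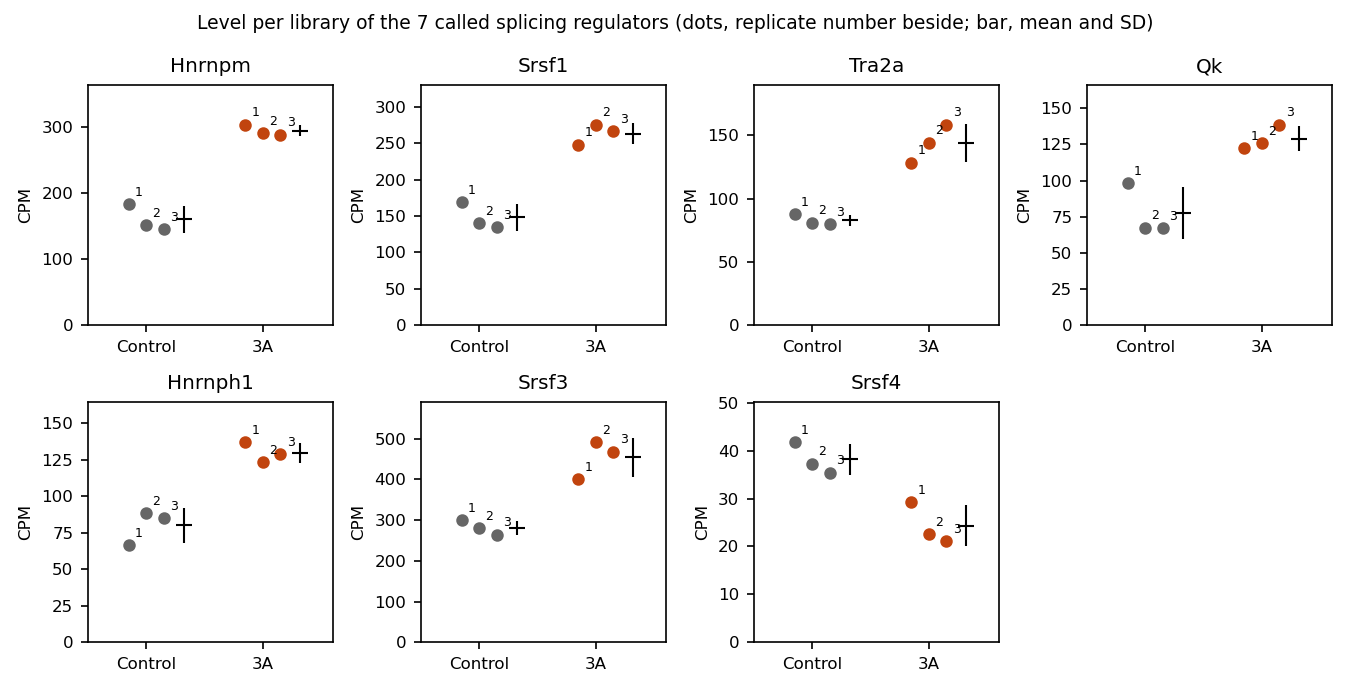
CPM per library of the 7 splicing regulators that passed the test (grey dots Control, red dots 3A, replicate number beside each dot, bar for mean and SD of 3 libraries, each axis from 0). The 3A dots lie above the Control dots for Hnrnpm, Srsf1, Tra2a, Qk, Hnrnph1 and Srsf3 and below them for Srsf4, and Control 1 is the Control dot nearest to 3A for Hnrnpm, Srsf1, Tra2a, Qk and Srsf3.

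TRA2 proteins are SR-related activators that bind purine-rich exonic enhancers. Tra2a measured 87.6, 81.1 and 79.7 CPM in the Control libraries, compared with 128, 144 and 159 CPM in those of 3A, without overlap (log2 fold change 0.80, SE 0.14, edgeR adjusted p = 0.0129). Tra2b, its more abundant paralog, was at 235, 275 and 273 CPM in the libraries labelled Control and at 240, 281 and 267 CPM in those labelled 3A, with overlapping groups (log2 fold change 0.01, 95% confidence interval -0.33 to 0.35, edgeR adjusted p = 0.968). The sign of the Tra2b value changed under upper-quartile scaling and 3 other alternatives. The ratio of Tra2a to Tra2b counts, which does not depend on scaling, was 0.373, 0.295 and 0.292 in the Control libraries, compared with 0.534, 0.514 and 0.594 in those of 3A, or 1.72-fold higher in 3A. Its 2-sided exact permutation p was 0.1, the smallest that 3 against 3 libraries allow. Tra2a (ENSMUSG00000029817) is a minus strand gene of chromosome 6, at 49243924 to 49264033.

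Of the 17 hnRNP genes, 2 rose and 0 fell by edgeR, or 11.8% called, beside 14.9% of all tested genes. At an unadjusted edgeR p under 0.05, 5 were higher and 2 lower, beside 15.8% and 18.1% of all genes. DESeq2 called 5 higher and 0 lower, beside 26.0% of all genes, and limma-voom 2 and 0, beside 15.2%. Hnrnpm, which binds GU-rich RNA and competes with ESRP proteins at several exons, had the smallest p of the 49. It measured 183, 152 and 145 CPM in the Control libraries, compared with 304, 291 and 289 CPM in those of 3A. Mean levels were 160 ± 20.1 CPM for Control and 295 ± 8.31 CPM for 3A (SD over 3 libraries), a log2 fold change of 0.88 with an SE of 0.15 (edgeR adjusted p = 0.0101). Hnrnpm (ENSMUSG00000059208; minus strand of chromosome 17, 33646233 to 33686860) shares 1169 exon bases with March2 on the same strand. March2 held 7.79% as many counts and was not called (log2 fold change 0.03, edgeR adjusted p = 0.942).

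Hnrnph1, which binds G-rich sequence, was at 66.4, 88.7 and 85.1 CPM in the libraries labelled Control and at 137, 124 and 129 CPM in those labelled 3A, with Control 1 the lowest library (log2 fold change 0.70, SE 0.16, edgeR adjusted p = 0.0297). Hnrnph1 (ENSMUSG00000007850) lies on chromosome 11 at 50376990 to 50386528. Its paralog Hnrnph2 measured 86.2, 126 and 133 CPM in the Control libraries, compared with 121, 105 and 105 CPM in those of 3A (log2 fold change -0.06, with a sign that changed under 4 alternatives, edgeR adjusted p = 0.854). The ratio of Hnrnph1 to Hnrnph2 counts was 0.771, 0.705 and 0.641 in the Control libraries, compared with 1.14, 1.18 and 1.22 in those of 3A, so that Hnrnph1 had fewer counts than Hnrnph2 in every Control library and more in every 3A library (2-sided exact permutation p = 0.1, the smallest possible). Hnrnph3, the least abundant of the 3, was at 8.15, 11.9 and 12.5 CPM in the libraries labelled Control and at 10.2, 7.81 and 8.49 CPM in those labelled 3A (log2 fold change -0.30, SE 0.22, edgeR adjusted p = 0.367), with overlapping groups. In these bulk samples, fewer cells with a transcript and less transcript per cell cannot be told apart.

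Hnrnpa1 was at 533, 519 and 525 CPM in the libraries labelled Control and at 684, 693 and 696 CPM in those labelled 3A, the tightest replicates of the hnRNPs. It did not pass (log2 fold change 0.39, SE 0.13, edgeR adjusted p = 0.0886; DESeq2 adjusted p = 0.00164). Hnrnpk, a poly(C)-binding hnRNP, measured 610, 711 and 681 CPM in the Control libraries, compared with 939, 853 and 879 CPM in those of 3A (log2 fold change 0.42, SE 0.15, edgeR adjusted p = 0.0979; DESeq2 adjusted p = 0.0215). Both genes were higher in all 3 libraries of 3A without passing the edgeR threshold. Hnrnpa1 has 13 annotated pseudogene copies in the table, and Hnrnpk 1, which held 2.70% and 3.90% as many counts as the genes themselves. Of 15 members with a copy in the table, 0 had copies holding over 5% as many counts, and for Srsf3, the called member with copies, the share was 0.861%.

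Hnrnpll, a paralog of Hnrnpl known from activation-dependent splicing in lymphocytes, was at 72.9, 33.6 and 35.5 CPM in the libraries labelled Control and at 65.4, 99.1 and 101 CPM in those labelled 3A. Control 1 was above 3A 1, and the gene was not called (log2 fold change 0.90, SE 0.34, edgeR adjusted p = 0.113). Without Control 1 its log2 fold change was 1.37 (edgeR adjusted p = 0.00197), in a fit that called 52.0% of all genes. Hnrnpul1 and Hnrnpul2, relatives of the nuclear scaffold protein gene Hnrnpu, had log2 fold changes of -0.41 and -0.51 (edgeR adjusted p = 0.138 and 0.131). Hnrnpul1 measured 233, 240 and 249 CPM in the Control libraries, compared with 216, 176 and 150 CPM in those of 3A. Hnrnpul2 was at 344, 441 and 471 CPM in the libraries labelled Control and at 363, 268 and 248 CPM in those labelled 3A. The Hnrnpul1 groups did not overlap, whereas Control 1 of Hnrnpul2 lay below 3A 1. The abundant Hnrnpab, Hnrnpa3 and Hnrnpa2b1 had wide Control ranges (1048 to 1937, 917 to 1706 and 631 to 1054 CPM), with Control 1 the lowest of the Control libraries in each. Hnrnpab measured 1048, 1758 and 1937 CPM in the Control libraries, compared with 2150, 1425 and 1369 CPM in those of 3A (log2 fold change 0.06, SE 0.29, edgeR adjusted p = 0.899), with a sign that changed without Control 1 or without 3A 1. Control 1 was also the lowest Control library for Hnrnpa0, at 208, 404 and 398 CPM in the Control libraries and 299, 198 and 147 CPM in those of 3A (log2 fold change -0.65, edgeR adjusted p = 0.218). Of the remaining hnRNP genes, Hnrnpc, which binds U-rich tracts, had a log2 fold change of 0.31 and Hnrnpu of 0.17 (edgeR adjusted p = 0.195 and 0.527), and Hnrnpf and Hnrnpl had -0.05 and -0.03, with signs that changed under library size scaling. Hnrnpl was at 255, 328 and 379 CPM in the libraries labelled Control and at 362, 308 and 271 CPM in those labelled 3A (SE 0.20, edgeR adjusted p = 0.919).

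Both PTB genes, encoding repressors that bind pyrimidine tracts, were not called by edgeR, DESeq2 or limma-voom (14.9%, 26.0% and 15.2% of all tested genes). At an unadjusted edgeR p under 0.05, 0 of the 2 were higher or lower, beside 15.8% and 18.1% of all genes. Ptbp1 measured 371, 253 and 247 CPM in the Control libraries, compared with 363, 366 and 319 CPM in those of 3A (log2 fold change 0.27, SE 0.20, edgeR adjusted p = 0.367). Ptbp3 was at 254, 154 and 160 CPM in the libraries labelled Control and at 186, 294 and 326 CPM in those labelled 3A (log2 fold change 0.50, SE 0.28, edgeR adjusted p = 0.242). In both, Control 1 lay within or above the 3A range. Without Control 1, edgeR called both higher, in a fit that called 52.0% of all genes.

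Of 8 regulators known for cell-type-specific splicing, Qk rose and 0 fell, or 12.5% called, beside 14.9% of all tested genes. limma-voom and DESeq2 likewise called 1 and 0, beside 15.2% and 26.0% of all genes. At an unadjusted edgeR p under 0.05, 2 were higher and 1 lower, beside 15.8% and 18.1% of all genes. Qk encodes a STAR family protein that binds ACUAA elements and also acts on circular RNA formation. It measured 98.3, 67.5 and 66.9 CPM in the Control libraries, compared with 122, 126 and 139 CPM in those of 3A (log2 fold change 0.73, SE 0.19, edgeR adjusted p = 0.0441). Control 1 was nearer to the 3A mean than to the other Control libraries, and Qk missed the threshold with library size scaling (adjusted p = 0.0686) and with the mitochondrial share as a covariate (log2 fold change 0.43, adjusted p = 0.0641). Qk (ENSMUSG00000062078) is a minus strand gene of chromosome 17, at 10202601 to 10319854.

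The epithelial regulators were well expressed in both lines. Esrp1 was at 257, 151 and 142 CPM in the libraries labelled Control and at 202, 218 and 230 CPM in those labelled 3A, where Control 1 exceeded every 3A library (log2 fold change 0.24, SE 0.25, edgeR adjusted p = 0.498). Esrp2 measured 52.2, 47.1 and 47.6 CPM in the Control libraries, compared with 43.3, 39.5 and 31.9 CPM in those of 3A (log2 fold change -0.36, edgeR adjusted p = 0.169). Its groups did not overlap, and it shares 338 exon bases with opposite-strand genes, of which Nfatc3 fell (log2 fold change -0.66, edgeR adjusted p = 0.0223). Whether reads of Nfatc3 contribute to the Esrp2 value was not tested.

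The muscleblind genes, which encode antagonists of fetal splicing patterns, had values in both directions and were not called. Mbnl1 was at 93.8, 136 and 165 CPM in the libraries labelled Control and at 99.7, 86.8 and 88.4 CPM in those labelled 3A (log2 fold change -0.52, SE 0.22, edgeR adjusted p = 0.143). Mbnl3 measured 31.3, 8.10 and 8.36 CPM in the Control libraries, compared with 11.4, 38.8 and 39.5 CPM in those of 3A (log2 fold change 0.91, SE 0.65, edgeR adjusted p = 0.351). For Mbnl3, Control 1 resembled 3A 2 and 3, and 3A 1 resembled Control 2 and 3, so the division of these libraries crossed the groups. With the mitochondrial share as a covariate its log2 fold change was -0.03, and without Control 1 it was 1.87 (edgeR adjusted p = 0.0142). The fit without Control 1 called 52.0% of all genes. Mbnl2 measured 48.6, 31.1 and 31.4 CPM in the Control libraries, compared with 33.7, 52.4 and 59.7 CPM in those of 3A (log2 fold change 0.39, SE 0.27, edgeR adjusted p = 0.335), with Control 1 above 3A 1. Rbfox2, which encodes a reader of GCAUG elements, had a log2 fold change of 0.17 (edgeR adjusted p = 0.505). Celf1, which binds GU-rich elements, was at 130, 82.6 and 93.9 CPM in the libraries labelled Control and at 128, 165 and 156 CPM in those labelled 3A (log2 fold change 0.55, SE 0.21, edgeR adjusted p = 0.115).

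**Figure D3:**
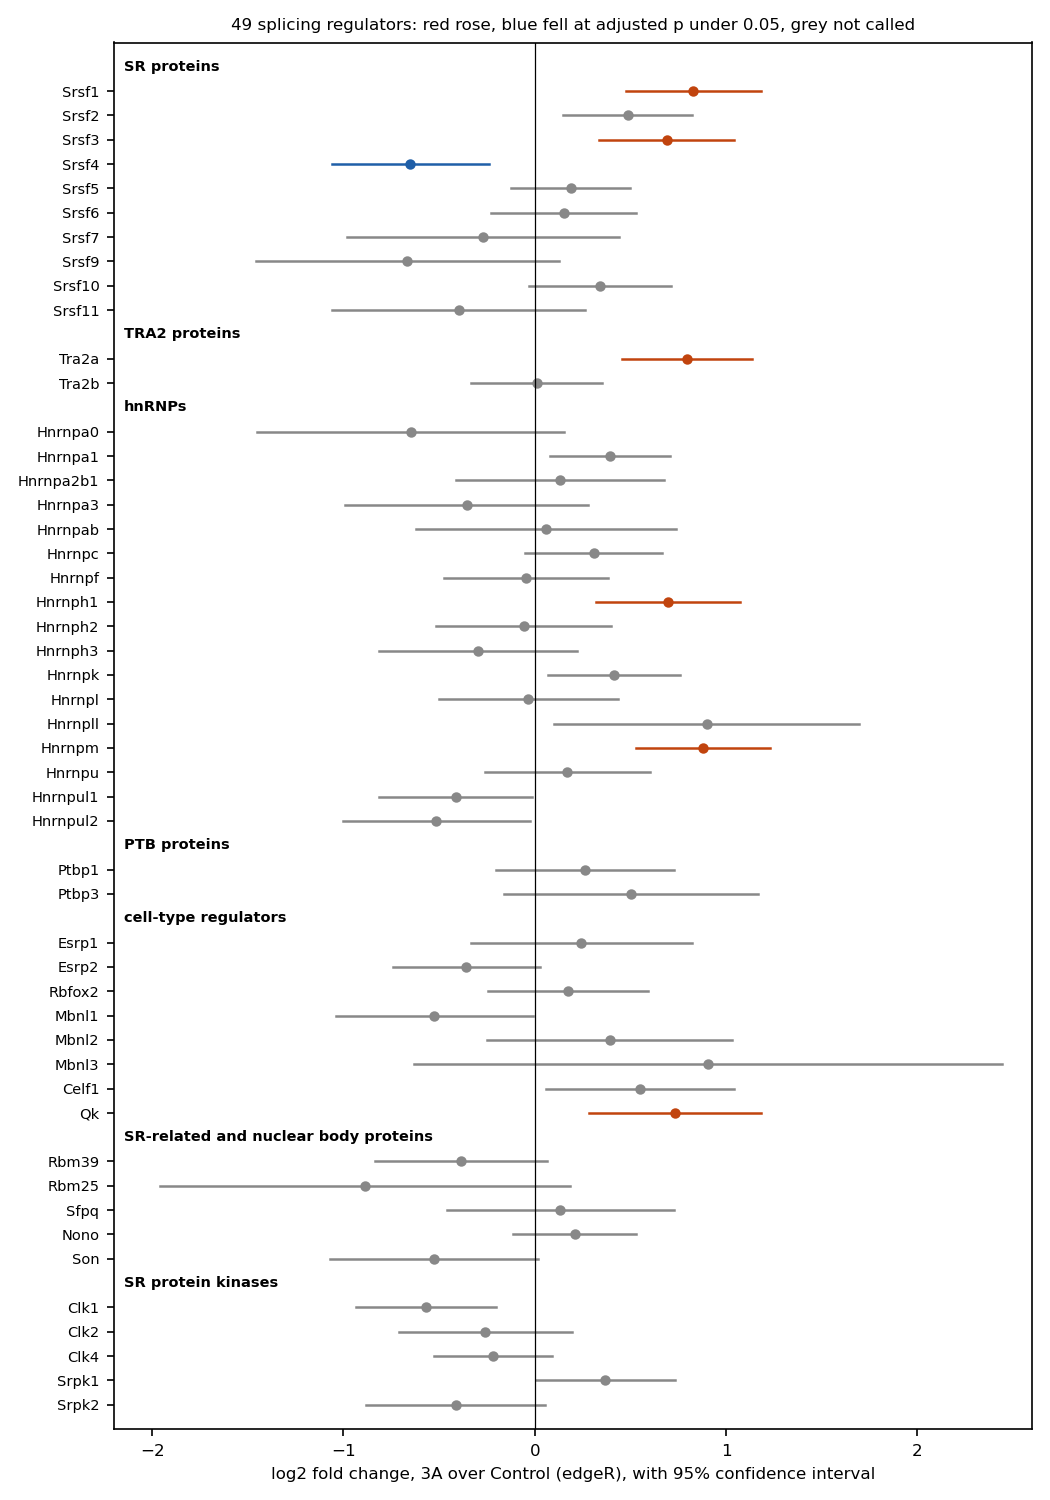
Log2 fold change of 3A over Control with its 95% confidence interval (edgeR, 3 libraries a group) for the 49 splicing regulators, grouped by role, with red for members that rose, blue for the member that fell and grey for those not called. Intervals are narrow for Nono and Clk4 and widest for Mbnl3, whose interval runs from -0.63 to 2.44.

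Of the 5 SR-related and nuclear body genes, 0 were called by edgeR, limma-voom or DESeq2 (14.9%, 15.2% and 26.0% of all tested genes). None of them had an unadjusted edgeR p under 0.05, beside 15.8% higher and 18.1% lower among all genes. Nono, a DBHS protein of paraspeckles, measured 448, 433 and 438 CPM in the Control libraries, compared with 546, 489 and 489 CPM in those of 3A (log2 fold change 0.21, SE 0.14, edgeR adjusted p = 0.308). Its partner Sfpq was at 144, 227 and 247 CPM in the libraries labelled Control and at 281, 214 and 183 CPM in those labelled 3A (log2 fold change 0.13, SE 0.25, edgeR adjusted p = 0.725). Rbm25, Son and Rbm39, which encode RNA-binding proteins found in nuclear speckles, had log2 fold changes of -0.89, -0.53 and -0.38 (edgeR adjusted p = 0.210, 0.155 and 0.199). Rbm25 measured 47.1, 139 and 187 CPM in the Control libraries, compared with 83.8, 59.4 and 58.0 CPM in those of 3A, and Son 219, 347 and 401 CPM, compared with 217, 222 and 232 CPM in those of 3A. For Rbm25 and Son, Control 1 lay with or below the 3A libraries. Without Control 1 the 3 genes had log2 fold changes of -1.27, -0.73 and -0.52 (edgeR adjusted p = 0.00230, 0.00299 and 0.0192). That fit called 52.0% of all genes.

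Of the 5 SR protein kinase genes, 0 were called by edgeR and by limma-voom, while DESeq2 called Clk1 lower (14.9%, 15.2% and 26.0% of all tested genes). At an unadjusted edgeR p under 0.05, 1 was higher and 1 lower, beside 15.8% and 18.1% of all genes. Clk1 was at 27.5, 36.3 and 30.6 CPM in the libraries labelled Control and at 21.4, 21.9 and 20.4 CPM in those labelled 3A, without overlap (log2 fold change -0.57, SE 0.16, edgeR adjusted p = 0.0516; DESeq2 adjusted p = 0.00890). Clk4, a close relative, measured 21.6, 22.6 and 21.3 CPM in the Control libraries, compared with 18.5, 18.9 and 18.9 CPM in those of 3A (log2 fold change -0.22, edgeR adjusted p = 0.275). Clk2 was at 25.9, 30.9 and 31.9 CPM in the libraries labelled Control and at 30.5, 23.0 and 20.6 CPM in those labelled 3A, with overlapping groups (log2 fold change -0.26, SE 0.19, edgeR adjusted p = 0.365). SRPK proteins act mainly in the cytoplasm, where phosphorylation promotes the nuclear import of SR proteins, and CLK proteins act in the nucleus. Srpk1 was at 75.9, 56.5 and 63.0 CPM in the libraries labelled Control and at 82.9, 84.3 and 85.3 CPM in those labelled 3A (log2 fold change 0.37, SE 0.16, edgeR adjusted p = 0.143). Srpk2 measured 55.1, 69.8 and 90.3 CPM in the Control libraries, compared with 56.1, 51.8 and 53.7 CPM in those of 3A (log2 fold change -0.41, edgeR adjusted p = 0.188). The ratio of Srpk1 to Srpk2 counts was 1.38, 0.810 and 0.697 in the Control libraries, compared with 1.48, 1.63 and 1.59 in those of 3A. It was higher in every 3A library than in any Control library, with Control 1 close to 3A 1 (2-sided exact permutation p = 0.1, the smallest possible). Srpk2 shares 972 exon bases with Kmt2e on the opposite strand, which fell (log2 fold change -0.89, edgeR adjusted p = 0.0401), and its part in the Srpk2 value was not tested.

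Count ratios were compared for 16 pairs of related members. For Tra2a over Tra2b, Hnrnph1 over Hnrnph2 and over Hnrnph3, Hnrnph2 over Hnrnph3, Clk1 over Clk4 and Srpk1 over Srpk2 the groups did not overlap, and the lowest adjusted p over the 16 pairs was 0.267. With 3 libraries against 3 the smallest possible p is 0.1, so no ratio could pass 0.05. Esrp1 over Esrp2 was 4.91, 3.20 and 2.98 in the Control libraries, compared with 4.67, 5.51 and 7.23 in those of 3A, with Control 1 above 3A 1 (2-sided exact permutation p = 0.2).

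**Figure D4:**
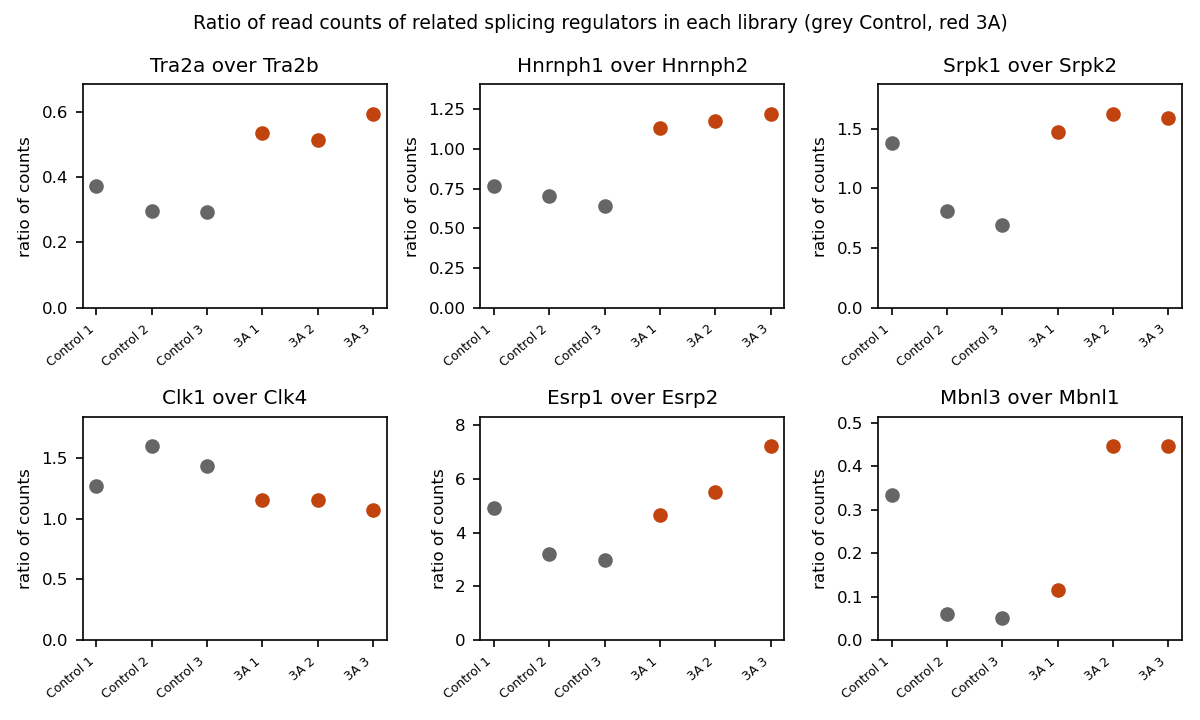
Ratio of read counts of 6 pairs of related splicing regulators in each library (grey Control, red 3A, each axis from 0). Red points lie above all grey points for Tra2a over Tra2b, Hnrnph1 over Hnrnph2 and Srpk1 over Srpk2 and below them for Clk1 over Clk4, while for Esrp1 over Esrp2 and Mbnl3 over Mbnl1 Control 1 lies among the red points.

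Transcripts annotated as NMD targets were another shared feature that the choice of members did not use. GENCODE lists at least 1 for 29 of the 49 (59.2%), compared with 28.7% of the 12009 tested protein-coding genes. Members also have more annotated transcripts, with a median of 10 compared with 5. Among genes with 1 to 5 annotated transcripts the shares were 50.0% of 10 members and 13.9% of tested protein-coding genes. With 6 to 10 transcripts they were 52.6% of 19 and 40.8%, and with 11 or more 70.0% of 20 and 61.2%. Of the 7 called members, Srsf1, Srsf3, Srsf4, Tra2a and Qk have such transcripts and Hnrnph1 and Hnrnpm do not. Counts summed over a gene do not separate productive from NMD-targeted transcripts, so the use of these exons was not analysed here.

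Other genes of the splicing pathway were read from the same test. Of 71 core spliceosome genes (snRNP proteins, SF3 subunits, PRPF factors and their helicases), 0 rose and 1 fell, or 1.41% called, beside 14.9% of all tested genes. At an unadjusted edgeR p under 0.05, 2 were higher and 8 lower, beside 15.8% and 18.1% of all genes. DESeq2 called 2 higher and 6 lower, beside 26.0% of all genes, and limma-voom 0 and 1, beside 15.2%. Without Control 1, edgeR called 59.2% of the 71, beside 52.0% of all genes tested in that fit. With all 6 libraries the median log2 fold change of the 71 was -0.15. The groups did not overlap for 4 of them (5.63%, beside 36.1% of all tested genes). The gene that fell was Slu7, a second-step splicing factor, at 79.4, 95.9 and 109 CPM in the Control libraries, compared with 65.2, 56.8 and 55.0 CPM in those of 3A (log2 fold change -0.68, SE 0.17, edgeR adjusted p = 0.0372). For 63 of the 71 (88.7%) Control 1 was nearer to the 3A mean than to the mean of Control 2 and 3, compared with 30 of the 49 regulators (61.2%) and 61.0% of all tested genes.

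Of 53 tested genes in a list of other splicing regulators, 3 rose and 0 fell, or 5.66% called, beside 14.9% of all tested genes. At an unadjusted edgeR p under 0.05, 8 were higher and 6 lower, beside 15.8% and 18.1% of all genes. DESeq2 called 7 higher and 6 lower, beside 26.0% of all genes, and limma-voom 3 and 0, beside 15.2%. Rbmx, an X-linked hnRNP gene, was at 13.7, 9.30 and 10.4 CPM in the libraries labelled Control and at 27.6, 34.7 and 33.9 CPM in those labelled 3A (log2 fold change 1.53, SE 0.20, edgeR adjusted p = 0.00389). Rbmx has retrogene copies, so its counts are uncertain. Fubp1, which binds AU-rich single-stranded elements, measured 80.9, 78.9 and 85.5 CPM in the Control libraries, compared with 152, 151 and 152 CPM in those of 3A (log2 fold change 0.89, edgeR adjusted p = 0.00541). Tia1, which binds U-rich sequence downstream of 5' splice sites, measured 32.7, 29.4 and 32.1 CPM in the Control libraries, compared with 45.0, 63.4 and 67.0 CPM in those of 3A (log2 fold change 0.90, SE 0.19, edgeR adjusted p = 0.0214). Among 15 exon junction and NMD factor genes 0 were called by edgeR or limma-voom, beside 14.9% and 15.2% of all genes. DESeq2 called 0 higher and 2 lower, beside 26.0% of all genes. At an unadjusted edgeR p under 0.05, 1 was higher and 3 lower, beside 15.8% and 18.1% of all genes. Without Control 1, edgeR called 53.3% of the 15, beside 52.0% of all genes tested in that fit.

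Which regulators were called depended on single libraries. Without Control 1, 18 members were higher and 13 lower (edgeR), including all 7 called with 6 libraries, or 63.3% of members, beside 52.0% of all genes tested in that fit. Without Control 2, without 3A 2 or without 3A 3, 0 members were called by edgeR, beside 5.99%, 4.72% and 4.77% of all genes called. At an unadjusted edgeR p under 0.05, members in these fits were 7 higher and 2 lower, 6 and 2, and 7 and 2. The share of all genes at that unadjusted p is not given for these fits, so these member counts have no background beside them. Without Control 3 only Hnrnpm was called (6.98% of all genes), and without 3A 1 Hnrnpm, Srsf1, Srsf3, Tra2a and Srsf4 were (9.18% of all genes). Across these 6 fits the log2 fold changes of the 7 called members kept their sign, and their adjusted p lay between 0.000912 and 0.215. Of the 7, Control 1 was nearer to the 3A mean for Qk alone. The mitochondrial share was high in Control 2 and 3 alone (4.16% and 4.69%), so a fit with it as a covariate compares 3A mainly with Control 1. With the mitochondrial share of each library as a covariate, 8 members were higher and 1 lower, beside 18.4% of all genes, with Srsf10, Hnrnpa2b1 and Hnrnpk added and Qk lost.

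**Figure D5:**
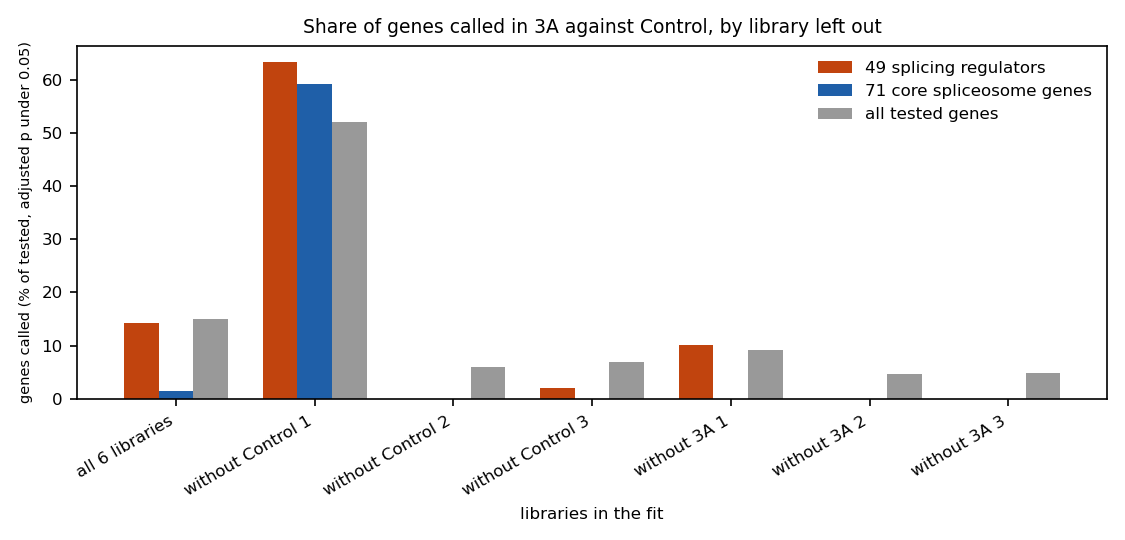
Share of tested genes called in 3A against Control (bars, percent, edgeR adjusted p under 0.05) with all 6 libraries and with each library left out, for the 49 splicing regulators (red), 71 core spliceosome genes (blue) and all tested genes (grey). The red and grey bars are near each other with all 6 libraries (14.3% and 14.9%), all 3 bars exceed 50% only without Control 1, and no red bar is visible without Control 2, 3A 2 or 3A 3.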

How the data were processed

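Per the labels, RNA was sequenced from 3 libraries of MK-546 (Control) and 3 of MK-546-ha3A (3A). The deposited table holds raw counts per Ensembl gene. The submitters' processing notes name Trim Galore, featureCounts, edgeR and limma without versions, and list the builds GRCh38, hg38 and mm10 without roles. Which aligner, which gene annotation and which strand setting were used is not given in the sources used here. Symbols, positions and exon lengths came from GENCODE M21 (GRCm38), which matched 49056 of 49315 IDs. The 3A and Control libraries were compared by the quasi-likelihood test of edgeR 4.0.16 under R 4.3.3 (filterByExpr, TMM scaling, glmQLFit, glmQLFTest, group as the only term) on all genes, with Benjamini-Hochberg adjustment over the 13704 that passed the filter. The common biological coefficient of variation was 0.264. CPM values use TMM-scaled library sizes. Chi-square per degree of freedom between replicates was at least 14.5, so no pair agreed within sampling noise.

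The members, the other gene lists and the alternatives were chosen with earlier results of these data known. Values of single libraries were given for members that were called or had an unadjusted p under 0.05. They were also given for the most abundant member of each role, for paralogs of these members, and from the other lists for called genes. Srsf9, Hnrnpa0, Rbm25 and Son met none of these rules, and their library values were given beside the spread of their Control libraries. Count ratios of paralogs were compared by 2-sided exact permutation (SciPy 1.17.1). Pseudogene copies were matched with blastn 2.17.0 at 90% identity over at least 300 bases. Alternatives were other scalings and filters, DESeq2 1.42.0, limma-voom (limma 3.58.1), robust fitting, a replicate block, the mitochondrial mRNA share as a covariate, an adjusted p under 0.01 and each library left out in turn.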

Additional observations from a re-analysis of the deposited data

How the results depend on the processing

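With RLE or upper-quartile scaling, the 1 CPM filter or limma-voom, the same 7 splicing regulators were called, and no scaling moved the median of all genes by over 0.1. Srsf4 alone was lost with no low-count filter or with the robust fit, and Srsf4 and Qk with library size scaling, leaving 0 members lower in each. DESeq2 called 10 members higher and 2 lower (all genes 1678 and 1887; core spliceosome 2 and 6; other regulators 7 and 6; NMD factors lower 2). At an adjusted p under 0.01 edgeR called 0 members either way (364 genes higher and 352 lower in all; core spliceosome lower 0), although 12 were higher and 5 lower at an unadjusted p under 0.05. Deviations of same-numbered libraries from their group means correlated at -0.66, -0.42 and -0.37. By these deviations no library was closest to the one with its own number. Because Control 1 and 3A 1 each stood apart within their group, these correlations cannot show whether same-numbered libraries were handled together. With the replicate block edgeR called 0 members higher and 0 lower (142 genes higher and 146 lower in all, other regulators higher 0, core spliceosome lower 0). At an unadjusted edgeR p under 0.05, 6 members were higher and 2 lower in this fit. The share of all genes at that unadjusted p is not given for it, so these member counts have no background beside them. With no filter, 4 core spliceosome genes and 1 NMD factor were lower, beside 8.17% of all genes called in either direction. The mitochondrial share was high in Control 2 and 3 alone, so the fit with it as a covariate compared 3A mainly with Control 1. With the mitochondrial share as a covariate, 3 core spliceosome genes were higher and 2 lower, and 7 other regulators higher. Of all genes, 18.4% were called in either direction with that covariate. That covariate changed the sign of the log2 fold change for 14 members, to 0.47 (Srsf7), 0.0145 (Srsf9), 0.29 (Srsf11), 0.0009 (Hnrnpa0), 0.21 (Hnrnpa3), 0.26 (Hnrnpf), 0.33 (Hnrnph2), 0.0907 (Hnrnph3), 0.29 (Hnrnpl), 0.41 (Rbm25), -0.0392 (Ptbp1), -0.19 (Esrp1), -0.10 (Rbfox2) and -0.025 (Mbnl3). Library size scaling gave 0.039 for Hnrnpf, 0.0298 for Hnrnph2 and 0.0514 for Hnrnpl, no filter 0.0047 for Hnrnpl, upper-quartile scaling -0.0036 and the 1 CPM filter -0.0001 for Tra2b. With each library left out in turn, members called higher ranged from 0 to 18 and lower from 0 to 13, all genes from 346 to 3751 and 318 to 3690, core spliceosome genes from 0 to 15 and 0 to 27, other regulators from 2 to 10 and 0 to 14, and NMD factors from 0 to 2 and 0 to 6. The log2 fold changes crossed 0 in these fits for Tra2b (-0.0498 to 0.0794), Hnrnpa2b1 (-0.0472 to 0.2847), Hnrnpab (-0.169 to 0.2318), Hnrnpf (-0.175 to 0.0685), Hnrnph2 (-0.2161 to 0.0595), Hnrnpl (-0.1634 to 0.1047) and Sfpq (-0.057 to 0.286). The 7 called members kept their direction in every alternative run. The cause of these changes was not tested. The lowest count of a member in any library was 197, for Mbnl3, and the effect of read depth on the calls was not tested.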
